A study of Mus musculus with 18 samples.

Results

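The cytosolic ribosomal proteins build the small (40S) and large (60S) subunits of the ribosome outside mitochondria. Their genes were taken by symbol from the deposited count files: every symbol made of Rpl or Rps and a number, with or without an a or x at the end, and Rplp0, Rplp1, Rplp2 and Rpsa. This gave 77 genes of the 23329 in the files, 31 of the small and 46 of the large subunit. Of these, 75 had enough reads to be tested. Rpl26 had 0 reads in all 18 libraries, and Rpl30 had 0 to 14 per library.

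RNA came from FDH cells, immortalised fetal liver cells of BALB/c mice (stage E14.5, passages 10 to 12) on a bc-/- bIL-3-/- background, that is, without the receptor chains that signal for IL-3. All 6 groups carried transduced bc (βc). One line also carried wild-type IL3Ra, the subunit that binds IL-3, and the other IL3Ra P248L, called the Site 4 mutant in the series title. Untreated cells of each line were kept with serum, doxycycline and SCF (stem cell factor) at 100 ng/ml, and treated cells were washed and held for 2 or 5 days with IL-3 at 100 ng/ml, a medium for which neither SCF nor doxycycline is listed. There were 3 libraries in each of the 6 groups. One line was made per receptor, so receptor and line cannot be told apart, and the change of medium cannot be told apart from IL-3. The labels do not say whether the 3 libraries of a group came from separate cultures, so the p-values measure only the spread between these samples, which may be technical.

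A ribosome holds 1 copy of nearly every ribosomal protein, and the stalk proteins Rplp1 and Rplp2 are present in more. The genes are transcribed at high levels in growing cells. Most of their mRNAs start with a C followed by a run of pyrimidines, the 5′ terminal oligopyrimidine tract, through which mTOR and the RNA-binding protein Larp1 set their translation and stability. Loss of 1 gene copy of several of them causes Diamond-Blackfan anaemia, in which erythroid progenitors fail.

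The start regions of members described below are printed to show this tract. RefSeq promoters on GRCm38.p6 were at hand for 57 of the 77 genes. A C followed by at least 4 C or T within 5 bases of the annotated start was found on the gene strand for 27 of the 57 (47.4%), beside 21.2% of all 27025 genes with an entry. Each line below gives 20 bases before the start, then the first 25 transcribed bases, and capitals mark the pyrimidine run where it was found.

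Rps18 (chr17:33955641-33955685, minus strand): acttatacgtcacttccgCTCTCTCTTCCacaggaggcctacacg
Rps6 (chr4:86857343-86857387, minus strand): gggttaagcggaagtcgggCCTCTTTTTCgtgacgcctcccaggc
Rpl14 (chr9:120571497-120571541, plus strand): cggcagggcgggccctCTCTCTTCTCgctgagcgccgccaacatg
Rps21 (chr2:180257359-180257403, plus strand): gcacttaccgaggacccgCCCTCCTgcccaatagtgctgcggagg
Rplp2 (chr7:141447631-141447675, plus strand): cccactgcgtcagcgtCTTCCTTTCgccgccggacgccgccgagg
Rplp0 (chr5:115559447-115559491, plus strand): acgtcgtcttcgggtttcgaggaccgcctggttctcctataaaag
Rpl36a (chrX:134585634-134585678, plus strand): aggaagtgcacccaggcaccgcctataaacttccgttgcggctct
Rps28 (chr17:33824538-33824582, minus strand): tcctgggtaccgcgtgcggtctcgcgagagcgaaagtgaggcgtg

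No run was found within 5 bases of the annotated starts of Rplp0, Rpl36a and Rps28, which says only that these letters are not in that window. Farther along the printed bases, outside the window, Rplp0 holds ctcct and Rpl36a cttcc. Rps21 has another annotated start, not printed, where no run was found. In the whole promoter windows, searched on both strands, the ETS-type motif CCGGAAG lay in 24 of the 57 (42.1%) beside 9.93% of all genes. The YY1-type motif ATGGCGGC lay in 4 (7.02%) beside 2.60%, and TATAAA in 6 (10.5%) beside 15.7%. A match is a match of letters and not a shown binding site.

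Libraries held 13844612 to 27181962 reads assigned to genes. Reads that map to several places were 12.5 to 21.3% of a library and are not in the gene counts, and ribosomal protein genes have many near-identical pseudogenes. Members with few reads are therefore uncertain: Rpl34 had 2 to 38 reads per library, Rps27 had 7 to 61, Rpl35a had 72 to 645 and Rpl29 had 124 to 591. Haematopoietic markers fitted the labelled origin, with 7 of 7 in the files at 1 CPM (counts in each 1000000 reads of tested genes, scaled by TMM factors) or more in every group. Of 12 hepatocyte, stromal and endothelial markers, 1 to 3 reached that level in a group and 6 to 9 had no reads, among them Alb and Ttr in every group. Their sum of 68.2 to 186 CPM was mostly Pecam1, at 67.3 to 173 CPM, which haematopoietic cells also express. Afp stood at 13.3 to 14.3 CPM in wild-type day 2 libraries and at most 4.08 CPM elsewhere, and Kdr at 3.40 to 6.31 CPM in wild-type day 5 libraries and at most 0.278 CPM elsewhere. Their part in the results was not tested.

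Ribosomal protein transcripts took their smallest share of the reads in wild-type cells after 5 days of IL-3. In untreated wild-type cells they were 5.79, 7.51 and 5.60% of the reads in genes in the 3 libraries, and at day 2 the mean was 5.14 ± 0.39% (SD, n = 3). At day 5 the libraries held 2.46, 2.17 and 2.27%, below each of the other 15. In P248L cells the untreated shares were 11.2, 7.75 and 6.27%. On day 2 they were 6.19, 5.28 and 4.64%, and on day 5 they were 4.08, 4.40 and 4.97%. The 3 untreated P248L libraries spread over a wider range than the 3 group means of that line, 8.40, 5.37 and 4.48%. Reads that map to several places ran alongside, at 15.0 to 17.1% of a library in untreated and 12.5 to 13.1% in day 5 wild-type cells and 17.2 to 21.3% in untreated P248L cells, and their part in the shares was not tested. The 10 other genes with most reads in a library held 4.10 to 4.34% in untreated and 13.3 to 15.0% in day 5 wild-type cells. In P248L cells they held 4.26 to 5.47% untreated and 10.8 to 11.3% at day 5, and their part was not tested either. Scaled by TMM factors, the members summed to 54726 ± 9520 CPM untreated and 27067 ± 1825 CPM at day 5 in wild-type cells (SD, n = 3). In P248L cells these sums were 78975 ± 29641 and 48572 ± 5549 CPM.

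**Figure D1:**
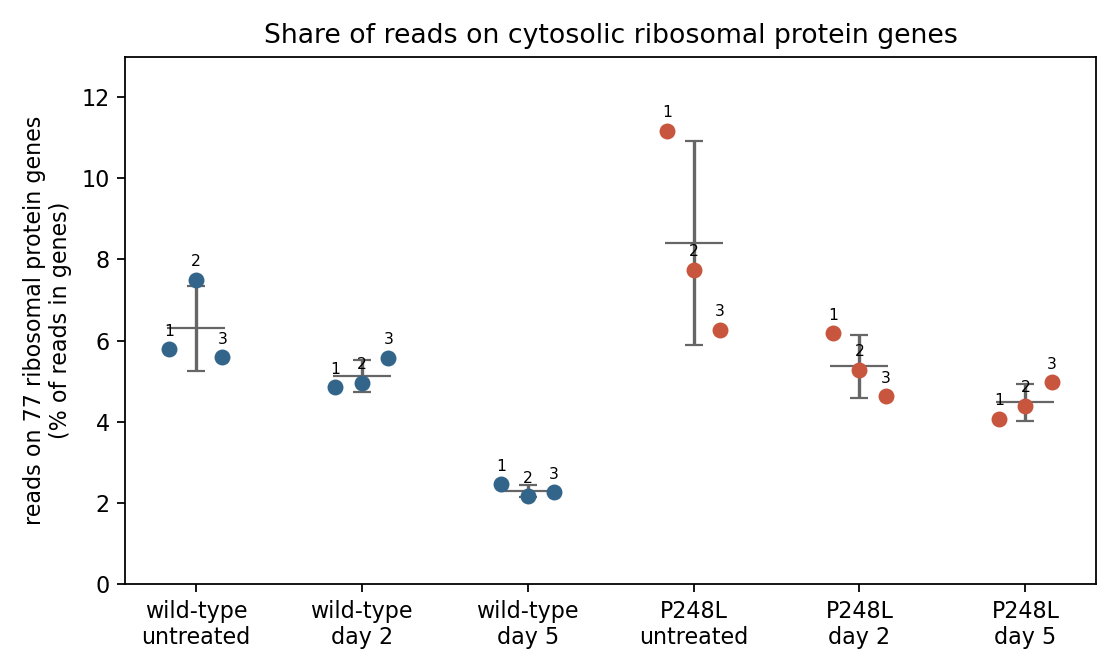
Share of the reads in genes that fell on the 77 ribosomal protein genes (y axis, percent) in each of the 18 libraries, by group on the x axis. Points are libraries with their replicate number, bars the mean and SD of 3; the wild-type day 5 libraries sit at 2.17 to 2.46%, below the other 15, and untreated P248L library 1 is the highest at 11.2%.

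Each of the 75 tested members had its lowest group mean in wild-type cells at day 5, as did 28.8% of all 11942 tested genes. For 52 of the 75 all 3 libraries of that group were below all 15 others, which held for 16.2% of all genes. At the other end, 69 of the 75 had their highest mean in untreated P248L cells (18.3% of all genes), but for 0 of them were all 3 libraries of that group above the other 15 (2.47% of all genes).

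In wild-type cells the fall from untreated to day 5 took in members of both subunits. At a Benjamini-Hochberg adjusted p under 0.05 in edgeR's quasi-likelihood test, 67 of the 75 members fell and 0 rose, where 37.4% of all tested genes fell and 35.7% rose. The median log2 fold change was -1.02, with a range of -1.76 to -0.37, against a median of -0.05 over all genes. The quartiles of the members were -1.19 and -0.85, and those of all genes -0.91 and 1.02. For 75 of 75 members the day 5 libraries lay below the untreated ones (42.8% of all genes). By subunit, 29 of 31 tested members of the small and 38 of 44 of the large subunit fell, with medians of -0.99 and -1.02. The 8 that missed the threshold were Rpl19, Rpl23, Rpl34, Rpl37a, Rpl41, Rplp1, Rps10 and Rps28, at -1.17 to -0.37.

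This fall ran beside a change in other cell-type genes. Of 13 neutrophil and macrophage markers, 11 were in the files, and 10 of them reached 1 CPM in the wild-type untreated and day 5 groups. Their summed level was 6925 to 7886 CPM in untreated and 46232 to 48897 CPM in day 5 wild-type libraries. At day 2 it was 18101 to 21031 CPM in wild-type and 4134 to 8621 CPM in P248L cells, and in P248L cells it was 5117 to 7599 CPM untreated and 46487 to 53699 CPM at day 5. The sum does not show single markers. Of the 11, 9 rose and 2 fell in wild-type cells from untreated to day 5 (35.7 and 37.4% of all genes). From day 2 to day 5, 4 rose and 6 fell in those cells (36.0 and 34.7%). In P248L cells 10 rose and 0 fell at day 2 (18.5 and 21.5%), and 10 rose and 1 fell at day 5 (34.8 and 36.2%). Erythroid markers summed to 0.188 to 4.69 CPM in all libraries. In such bulk RNA, fewer cells of a type and less RNA per cell cannot be told apart, and the part of this change in the results was not tested.

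Rpl3, a large-subunit protein beside the peptidyl transferase centre (chr15:80077781-80083406), fell the most. Its CPM was 1032, 1296 and 988 untreated, 876, 954 and 1017 on day 2 and 322, 316 and 344 at day 5. The day 5 libraries lay far below the other 6, and the log2 fold change against untreated was -1.76 (SE 0.16, edgeR adjusted p = 2.35e-08). Next came Rpl10a of the L1 stalk, from 141 ± 38.1 CPM (mean ± SD, n = 3) to 43.0 ± 4.83, a change of -1.71 (SE 0.23, edgeR adjusted p = 2.47e-06). Rpl36a, whose start region is printed above, went from 386, 601 and 321 to 154, 126 and 167 CPM, a change of -1.55 (SE 0.25, edgeR adjusted p = 2.36e-05).

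Among other large-subunit proteins, Rpl4, whose extension lines the exit tunnel (chr9:64173387-64178562), had the most reads of all members, without regard to length. It stood at 2704, 3089 and 2866 CPM untreated, 2878, 2619 and 2779 on day 2 and 1237, 1199 and 1099 at day 5, so that the day 5 libraries were below all others. Its change from untreated to day 5 was -1.29 (SE 0.16, edgeR adjusted p = 7.19e-07). Rpl8, near the peptidyl transferase centre, changed by -1.33 (SE 0.25, edgeR adjusted p = 0.000142) on the log2 scale, and Rpl22, an RNA-binding protein known as a tumour suppressor in T cells, by -1.21 (SE 0.22, edgeR adjusted p = 8.27e-05). For Rpl10, a late-joining protein (chrX:74270816-74273135), 645, 764 and 597 CPM became 402, 352 and 401, with no overlap and a log2 fold change of -0.80 (SE 0.15, edgeR adjusted p = 0.000138). Rpl23 moved the least, from 701, 795 and 771 to 657, 593 and 508 CPM at -0.37 (SE 0.17, edgeR adjusted p = 0.0596). It was chosen after its values were seen.

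The 5S particle of Rpl5 and Rpl11, which outside ribosomes can bind Mdm2 and so raise p53, fell in both of its proteins. Rpl5 (chr5:107900508-107909005) had 594, 717 and 643 CPM untreated and 275, 284 and 266 at day 5, a log2 fold change of -1.24 (SE 0.17, edgeR adjusted p = 2.39e-06). Rpl11 changed by -1.17 (SE 0.23, edgeR adjusted p = 0.000154). Of the 3 proteins of the P stalk, which recruits elongation factors, 2 passed the threshold. Rplp0 (chr5:115559467-115563729) had 1055, 1469 and 941 CPM untreated and 704, 621 and 730.3 at day 5, at -0.75 (SE 0.26, edgeR adjusted p = 0.015). Rplp2 changed by -0.84 (edgeR adjusted p = 0.019), and Rplp1 stood at -0.64 (edgeR adjusted p = 0.12).

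In the small subunit, Rps6, the ribosomal protein that S6 kinases phosphorylate (chr4:86854099-86857367), had the largest fall of that subunit. Its libraries held 357, 471 and 387 CPM untreated and 150.0, 152 and 139 at day 5, a log2 fold change of -1.46 (SE 0.18, edgeR adjusted p = 1.27e-06). Rpsa, also known as the laminin receptor, fell from 1274, 1651 and 1184 to 552, 505 and 566 CPM, at -1.34 (SE 0.23, edgeR adjusted p = 4.51e-05). Rps25, needed for initiation at several internal ribosome entry sites, changed by -1.15 (SE 0.25, edgeR adjusted p = 0.000427), and Rps14, needed for maturation of the small subunit, by -0.78 (SE 0.24, edgeR adjusted p = 0.00796). Rps19, the gene most often mutated in Diamond-Blackfan anaemia, went from 509, 748 and 451 to 350.0, 279 and 310.4 CPM, at -0.86 (SE 0.29, edgeR adjusted p = 0.0134). Of 20 members on a list of genes mutated in that anaemia, 19 were tested and 17 fell (89.5%). That is near the 89.3% of all tested members that fell, beside 37.4% of all genes. Rps27a, made as a fusion with ubiquitin, changed by -0.72 (SE 0.21, edgeR adjusted p = 0.00558).

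Besides the main fit 33 settings were tried, 1 of them only for P248L cells at day 2 against untreated. Of 27 members named by rule that fell in wild-type cells from untreated to day 5, 20 stayed past the threshold in every other setting fitted for it. Rplp0, Rplp2, Rps12, Rps19, Rps29, Rpl38 and Rpl39 each lost the call in at least 1, which were leaving out untreated library 2, day 5 library 2 or day 5 library 3 and, for 1 gene, DESeq2 size factors.

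**Figure D2:**
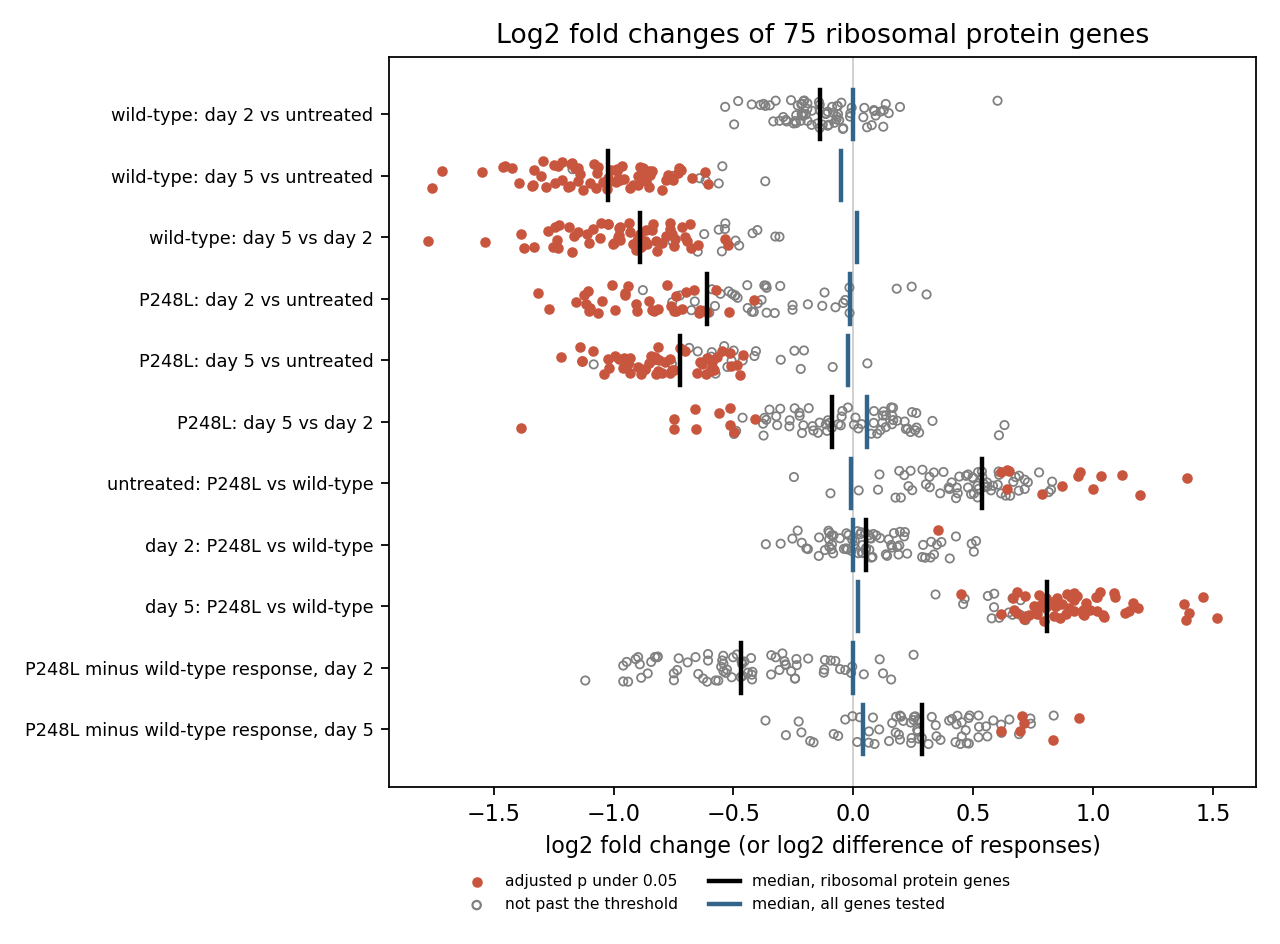
Log2 fold changes (x axis) of the 75 tested ribosomal protein genes in the 11 comparisons (y axis), with filled points for an edgeR adjusted p under 0.05. Black and blue lines are the medians of the members and of all genes tested; in wild-type cells at day 5 the member median is -1.02 beside -0.05, and at day 5 between the lines it is 0.81 beside 0.02.

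At day 2 wild-type cells had not changed in these genes by this test. Of 75 members 0 rose and 0 fell, while 22.1% of all genes rose and 21.8% fell. At an unadjusted p under 0.05 edgeR gave 0 members higher and 1 lower, Rpl10a, and DESeq2 and limma-voom also called 0. The member median was -0.14 against 0.00, and 1 member lay wholly above and 4 wholly below the untreated libraries (32.2 and 32.0% of all genes). The 1 above was Rpl34 and the 4 below were Rpl10a, Rpl15, Rps15 and Rps24, named after their values were seen. Rplp0 held 1031, 1356 and 1417 CPM, at 0.14 (edgeR adjusted p = 0.71), and Rpl10a 98.9, 99.0 and 105 CPM, at -0.48 (edgeR adjusted p = 0.0905). The fall then came between day 2 and day 5, where 62 of 75 fell and 0 rose (34.7 and 36.0% of all genes) and the median was -0.89. For 69 members the day 5 libraries lay below all of day 2 (40.8% of all genes). Rpl34, at 0.114 to 1.67 CPM in these libraries, had the largest fitted fall, -1.77 (SE 0.54, edgeR adjusted p = 0.00757), on very few reads. Rpl3 followed at -1.54 (SE 0.16, edgeR adjusted p = 1.48e-07) and Rpl8 at -1.39 (SE 0.26, edgeR adjusted p = 0.000102). The count of 0 falls at day 2 was 16 once each library's trend with transcript length and GC content was taken out, 6 without scaling and 4 when only the compared libraries were fitted.

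Ribosomal protein transcripts are short, at a median of 729 nt beside 2717 nt over the tested genes, and libraries of the same group differed in how they held short transcripts. Against its group mean, P248L untreated library 1 was higher by a median of 0.56 log2 units over the members, and library 3 deviated by -0.45. In library 1 the 26 members with transcripts under 600 nt deviated by 0.65 and the 23 of 900 nt or more by 0.50. These lengths are of an annotated transcript for each gene, which need not be the one present in the cells. The 996 other tested genes with transcripts under 1000 nt moved the same way, by medians of 0.38 and -0.29 in these libraries, and the 10754 longer ones by -0.01 and 0.00. Wild-type untreated library 2 was higher in the members by 0.27, with 0.17 in the other short genes. In P248L day 2 library 3 the shorter members were at -0.37 and the longer ones at -0.08. The part of these trends in the results was not tested beyond values given without these libraries or with the length and GC trend removed.

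**Figure D3:**
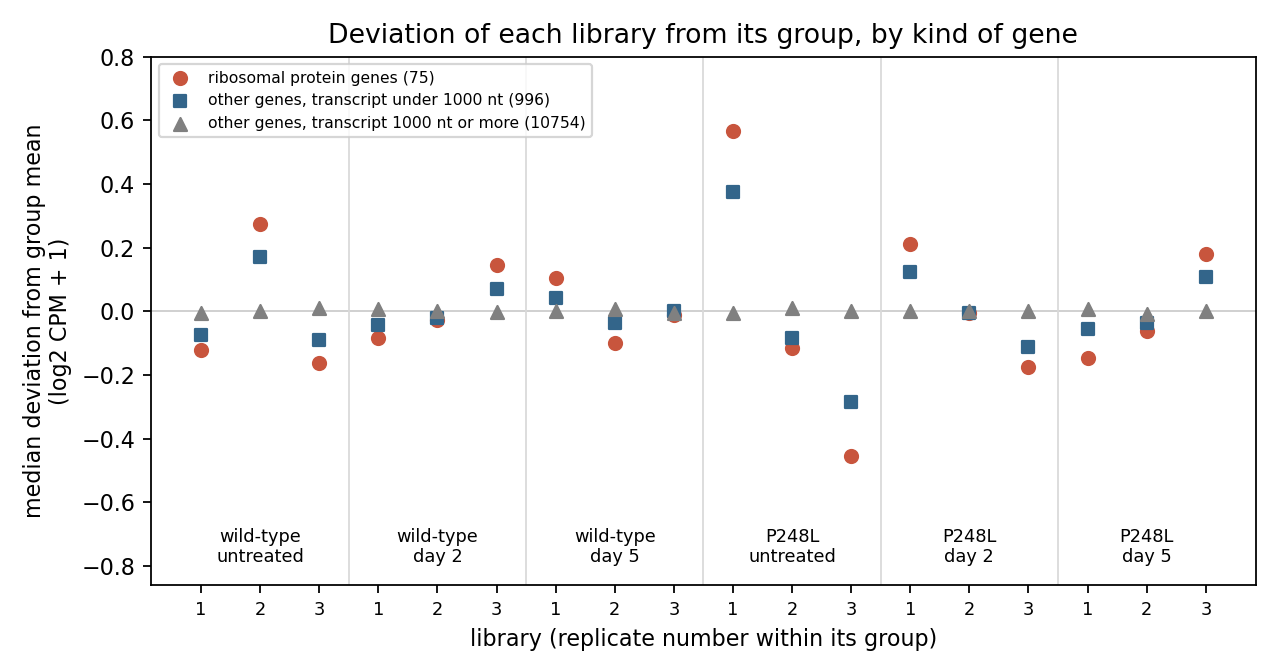
Median deviation of each library from its group mean (y axis, log2 of CPM + 1) over the ribosomal protein genes, other genes with short transcripts and other genes with longer transcripts, by library on the x axis. Untreated P248L libraries 1 and 3 stand at 0.56 and -0.45 for the ribosomal protein genes and at 0.38 and -0.29 for other short genes, while longer genes stay between -0.01 and 0.00 in these libraries.

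In P248L cells the members were lower at both IL-3 times than before, in counts that rested on these libraries. At day 2, 35 of 75 fell and 0 rose (21.5 and 18.5% of all genes), at a median of -0.61, and 20 had no overlap with the untreated libraries (19.2% of all genes). The other short genes had a median of -0.35. The largest falls were those of Rps28, Rps29 and Rpl37a. Rps28, a small protein of the small subunit (chr17:33823036-33824562), had 694, 409 and 298 CPM untreated and 263, 205 and 94.9 at day 2. Both groups spread widely, and the log2 fold change was -1.31 (SE 0.34, edgeR adjusted p = 0.00517). Rps29 stood at -1.27 (edgeR adjusted p = 0.0136) and Rpl37a at -1.16 (edgeR adjusted p = 0.0049). The 3 stalk proteins fell too, Rplp0 at -0.75 (edgeR adjusted p = 0.0294), Rplp1 at -1.0 (edgeR adjusted p = 0.0362) and Rplp2 at -1.11 (edgeR adjusted p = 0.00785). Without untreated library 1 and day 2 library 3, 0 members fell and 1 rose, Rps27 on few reads, the median was -0.21, and Rps28 was at -0.59 (edgeR adjusted p = 0.0923) and Rplp2 at -0.27 (edgeR adjusted p = 0.248). This choice was one-sided. In the members untreated library 1 was the highest of its group and day 2 library 3 the lowest of its own. Their median deviations were 0.56 and -0.17, and untreated library 3, at -0.45, was kept. Leaving out this pair lessens the fall by the choice itself, so it is no independent check. Leaving out a single library gave 5 falls without untreated library 1, 55 without untreated library 3 and 10 without day 2 library 3. Fitting only the compared libraries gave 2 falls. Of 18 named members that fell, 0 stayed past the threshold in every other setting.

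At day 5, 54 of 75 members were lower than in untreated P248L cells and 0 higher (36.2 and 34.8% of all genes), at a median of -0.72. The other short genes were at -0.60, and 32 members had no overlap (35.5% of all genes). Rps21, whose start region is printed above, held 3037, 1480.2 and 989 CPM untreated and 681, 764 and 919 at day 5. It had the largest fall, -1.22 (SE 0.31, edgeR adjusted p = 0.00216), and was at -0.65 (edgeR adjusted p = 0.0161) without the 2 libraries. Rpl14 went from 3289, 1771 and 1328 to 918, 931 and 1047 CPM, at -1.14 (SE 0.24, edgeR adjusted p = 0.000415), and Rps12 was at -1.13 (SE 0.36, edgeR adjusted p = 0.00887), or -0.33 (edgeR adjusted p = 0.193) without them. Rpl3 held 1589, 1324 and 1017 CPM untreated and 643, 758 and 834 at day 5, with no overlap. Its change was -0.81 (SE 0.16, edgeR adjusted p = 0.000193), and -0.65 (edgeR adjusted p = 0.000453) without the 2 libraries. Rpl10 did not pass the threshold, with 523, 670.3 and 684 CPM untreated and 485, 585 and 698 at day 5, and its untreated library 1 was the lowest of its group, where 73 of 75 members were above the group mean. Without the 2 libraries 31 members fell, all of them among the 54, at a median of -0.36 over the 75, with the trends on length and GC removed the median was -0.37, and without untreated library 1 alone 23 did. Of 24 named members that fell, Rpl3, Rpl8, Rpl10a, Rpl11, Rpl14, Rpl22, Rpl36a, Rps2 and Rps21 stayed past the threshold in every other setting fitted.

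From day 2 to day 5 P248L cells changed in few members. There were 10 falls and 0 rises (33.1 and 37.1% of all genes), at a median of -0.09, and 9 of the 10 were of the large subunit. Apart from Rpl34, at -1.39 (SE 0.51, edgeR adjusted p = 0.0223) on few reads, the largest were Rpl21 and Rps2. Rpl21 had 676, 728 and 884 CPM at day 2 and 418, 426 and 517 at day 5, at -0.75 (SE 0.13, edgeR adjusted p = 5.13e-05). Rps2 was at -0.75 (SE 0.25, edgeR adjusted p = 0.013). The count of falls was 19 without the 2 libraries, 16 without untreated library 1 and 6 without day 5 library 1. With the trends on length and GC removed, 5 members rose, so the count of 0 rises depended on the setting.

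After 5 days of IL-3, ribosomal protein genes stood at higher CPM in P248L than in wild-type cells. Of 75 members 58 were higher and 0 lower (22.8 and 22.7% of all genes), at a median log2 difference of 0.81 and a range of 0.34 to 1.51. The median over all genes was 0.02, and over the other short genes 0.08. For 70 of 75 members all P248L libraries lay above all wild-type ones (33.4% of all genes). By subunit, 26 of 31 small and 32 of 44 large members were higher, at medians of 0.92 and 0.80. The neutrophil and macrophage markers summed to 46232 to 48897 CPM in wild-type and 46487 to 53699 CPM in P248L libraries at this time. Singly they differed: of 11, 6 were higher and 2 lower in P248L cells (22.8 and 22.7% of all genes). Their median log2 difference was 1.26, with a range of -1.41 to 5.95.

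Rps18, which lies in the head of the small subunit (chr17:33951998-33955665), differed the most at day 5. It had 182, 145 and 181 CPM in wild-type and 383, 514 and 554 in P248L cells. The groups were far apart, at a log2 difference of 1.51 (SE 0.22, edgeR adjusted p = 2.53e-05). Rps28 had 117, 86.6 and 113 against 228, 303 and 340.5 CPM, at 1.46 (SE 0.34, edgeR adjusted p = 0.00191). Rpl36 of the large subunit stood at 76.7, 65.1 and 61.6 against 199, 159 and 179 CPM, at 1.40 (SE 0.40, edgeR adjusted p = 0.00865). These 3 were also higher in P248L cells before treatment, as given below.

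Among the other members higher in P248L cells at day 5, Rpl3 had 643, 758 and 834 CPM in P248L against 322, 316 and 344 in wild-type cells, with no overlap and a difference of 1.19 (SE 0.16, edgeR adjusted p = 9.39e-06). For Rps6 the values were 325, 292 and 351 against 150.0, 152 and 139 CPM, at 1.13 (SE 0.18, edgeR adjusted p = 6.37e-05). Rpsa was at 1.15 (edgeR adjusted p = 0.000483), Rpl5 at 0.91 (edgeR adjusted p = 0.000198) and Rpl11 at 0.85 (edgeR adjusted p = 0.00485). In the P stalk Rplp0 was higher, at 0.68 (edgeR adjusted p = 0.0408), while Rplp1 stood at 0.59 (edgeR adjusted p = 0.205) and Rplp2 at 0.65 (edgeR adjusted p = 0.0907). Rps19 had 444, 554 and 593 against 350.0, 279 and 310.4 CPM and a difference of 0.76 (edgeR adjusted p = 0.0416). Rps25 was higher at 0.97 (edgeR adjusted p = 0.00354), Rps27a at 0.84 (edgeR adjusted p = 0.00363) and Rpl10 at 0.61 (edgeR adjusted p = 0.00291). Of 26 named members that were higher, 19 stayed past the threshold in every other setting fitted. Rplp0, Rps14, Rps19, Rps21, Rpl8, Rpl38 and Rpl39 each lost the call in at least 1, and all 7 did without P248L day 5 library 3.

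**Figure D4:**
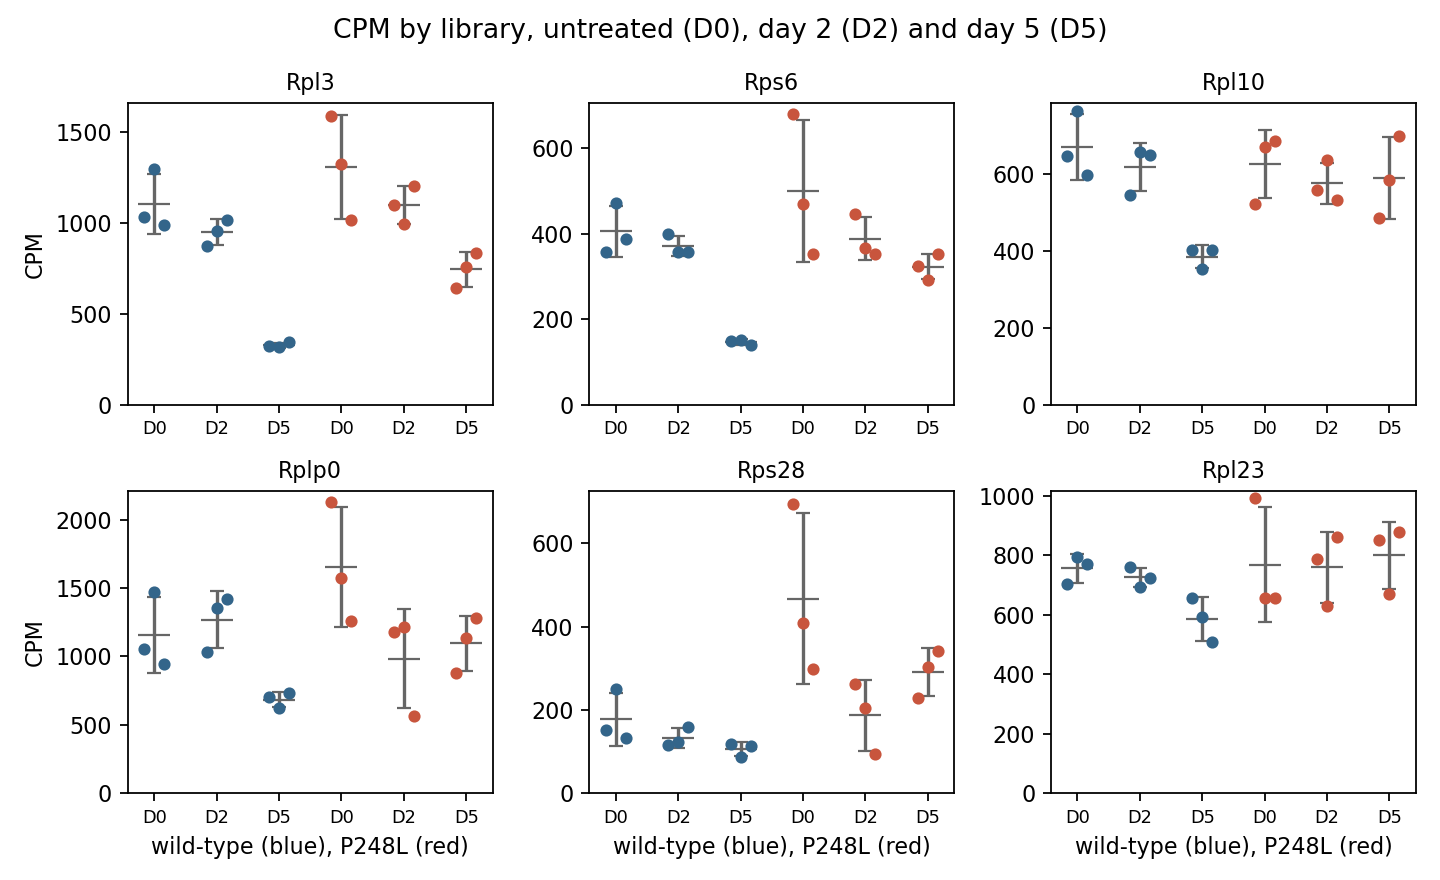
CPM (y axis) of 6 ribosomal protein genes in each library, by day on the x axis, wild-type in blue and P248L in red; bars give the mean and SD of 3 libraries. In Rpl3 and Rps6 the wild-type day 5 libraries, at 316 to 344 and 139 to 152 CPM, lie below all others, and P248L untreated library 1 is high in Rplp0, Rps28 and Rpl23.

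Untreated, 13 of 75 members were higher in P248L than in wild-type cells and 0 lower (10.3 and 11.3% of all genes), at a median of 0.54. The other short genes stood at a median of 0.44, and 6 members had no overlap (15.0% of all genes). The members called higher were 17.3%, where 23.7% of the other short genes and 30.3% of mitochondrial ribosomal protein genes were. The largest were Rps28, Rpl36 and Rps10. Rps28 had 694, 409 and 298 CPM against 151, 250.2 and 132, with no overlap, at 1.39 (SE 0.34, edgeR adjusted p = 0.00696). Rpl36 was at 1.19 (SE 0.40, edgeR adjusted p = 0.0411) and Rps10, at the mRNA entry channel, at 1.12 (SE 0.34, edgeR adjusted p = 0.0273). Rps18 was at 1.03 (SE 0.22, edgeR adjusted p = 0.0027). Without the 2 P248L libraries 4 members were higher, at a median of 0.20, with Rps28 at 0.99 (edgeR adjusted p = 0.00692), Rps18 at 0.74 (edgeR adjusted p = 0.011), Rps10 at 0.95 (edgeR adjusted p = 0.0175) and Rps2 at 0.58 (edgeR adjusted p = 0.0313). Leaving out 1 library moved the count from 2, without P248L library 1, to 51, without P248L library 3. It was 3 without wild-type library 1 or 3 and 26 without wild-type library 2, 7 or 8 without P248L day 5 library 1 or 2, wild-type day 2 library 1 or 3 or any wild-type day 5 library, and 0 when only these 6 libraries were fitted.

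At day 2, when the lines had like shares of ribosomal protein reads, 1 of 75 members was higher in P248L cells and 0 lower (15.5 and 20.3% of all genes), at a median of 0.05, and 6 members had no overlap (20.6% of all genes). The 1 called was Rpl21, with 676, 728 and 884 CPM against 564, 633 and 593, at 0.35 (SE 0.13, edgeR adjusted p = 0.0399). It missed the threshold without the 2 libraries, 0.24 (edgeR adjusted p = 0.0986), where Rps2, Rps18, Rps28, Rpl10a and Rpl36 passed. The count was 0 without P248L day 2 library 3, wild-type day 2 library 1 or 3 or wild-type day 5 library 2, 2 without P248L day 2 library 2, and 5 without P248L untreated library 1.

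The difference between the lines' responses was tested as a term of its own. At day 5, P248L cells fell less than wild-type cells in 6 of 75 members and more in 0 (14.7 and 12.2% of all genes), at a median of 0.29 beside 0.04 over all genes and -0.34 over other short genes. Rpl3 differed the most, at 0.94 (SE 0.22, edgeR adjusted p = 0.00459), from a change of -1.76 in wild-type and -0.81 in P248L cells. Rps6 differed by 0.83 (SE 0.26, edgeR adjusted p = 0.0233), from -1.46 and -0.63. Rpl10 differed by 0.71 (SE 0.21, edgeR adjusted p = 0.0205), from -0.80 and -0.09. The others were Rpl4 at 0.70 (edgeR adjusted p = 0.024), Rpl5 at 0.70 (edgeR adjusted p = 0.0336) and Rpl21 at 0.61 (edgeR adjusted p = 0.0186). Rpl3 alone of these 6 stayed past the threshold in every other setting fitted, between 0.75 and 1.16.

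**Figure D5:**
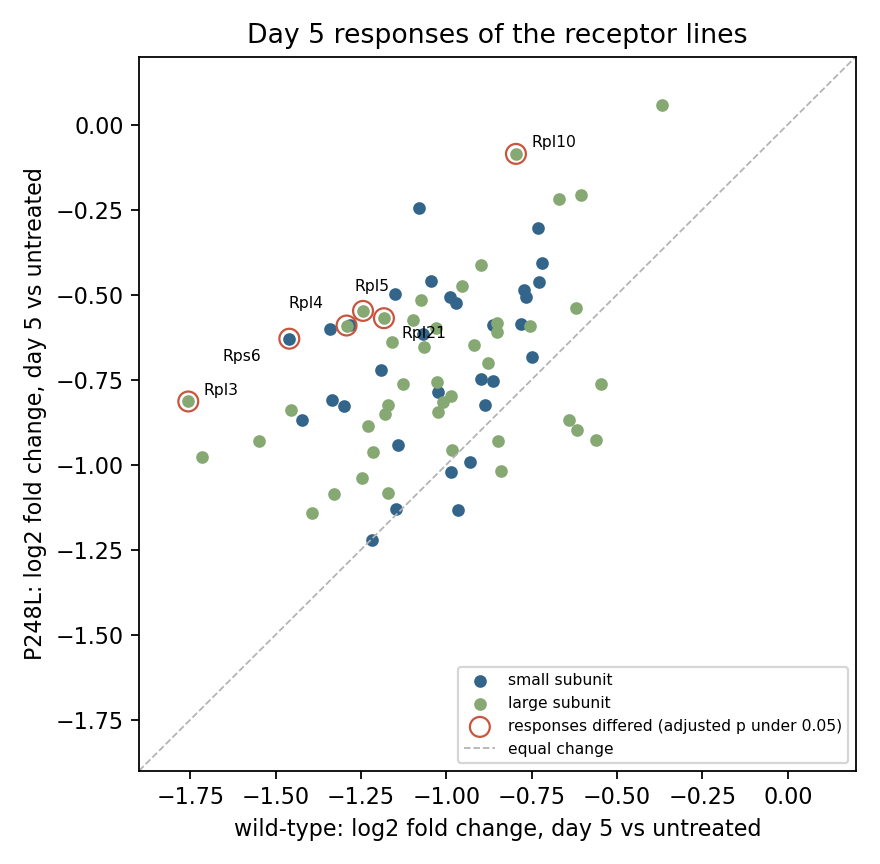
Log2 fold change from untreated to day 5 of the 75 members in wild-type (x axis) and P248L cells (y axis), coloured by subunit, with a dashed line of equal change. Most points lie above the line; the 6 circled genes, among them Rpl3 at -1.76 and -0.81, had responses that differed at an edgeR adjusted p under 0.05.

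Wherever members moved in 1 direction in these comparisons, the count of 0 in the other was also 0 at an unadjusted edgeR p under 0.05 and with DESeq2 and limma-voom.

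The number of members whose response differed at day 5 moved with the libraries left out, and the cause was not tested. It was 37 without P248L untreated library 1 and day 2 library 3, where the member median was 0.64, and 40 with the trends on length and GC removed, at a median of 0.64. It was 25 without P248L untreated library 1 alone, 1 without wild-type untreated library 2 or P248L day 5 library 3, 2 without P248L untreated library 2, and 3 without wild-type day 5 library 2 or 3. The share of all genes called in each of these fits is not given here, so these counts cannot be set against it. Leaving out P248L untreated library 1, the highest of its group in the members, raises this difference by the choice itself. At day 2, 0 of 75 responses differed in either direction by edgeR, DESeq2 or limma-voom (3.05 and 6.50% of all genes by edgeR, and 0 higher and 6 lower members at an unadjusted p under 0.05), at a median of -0.47, and at -0.04 without the 2 libraries. Leaving out P248L untreated library 3 gave 4 members with a lower response in P248L cells.

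Levels of different members were compared per kilobase of transcript, among the 75 tested. The length is that of an annotated transcript and can far exceed the coding part. Rps20, at 3706 nt, was 70th per kilobase of transcript and 23rd per kilobase of coding sequence in untreated wild-type cells. Rpl32 was first in 4 of the 6 groups, at 2750 ± 500 CPM per kb (SD, n = 3) in untreated and 1419 ± 117 CPM per kb in day 5 wild-type cells. Rps21 was second in untreated wild-type cells, at 2435 ± 693 CPM per kb, which is not apart from Rpl32 beyond their spread, and first in untreated P248L cells, and Rpl22 was first in P248L cells at day 2. Rpl29, Rpl35a, Rps27 and Rpl34, the tested members with few uniquely mapped reads, held the last 4 ranks in each group. The order depends on the length taken: per kilobase of coding sequence, Rpl41, the smallest ribosomal protein, and Rpl39, which lines the exit tunnel, held the first 2 ranks in each group, while per kilobase of transcript they were 28th and 17th in untreated wild-type cells. Rpl41 did not pass the threshold at day 5 in wild-type cells, with 378, 422 and 475 CPM untreated and 339.9, 305 and 220.0 at day 5, at -0.56 (edgeR adjusted p = 0.237). In untreated P248L cells it had 1468, 457 and 334 CPM, with library 1 far above the others.

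Summed reads of small-subunit genes were 0.69 ± 0.03 (SD, n = 3) of those of large-subunit genes in untreated, 0.66 ± 0.02 in day 2 and 0.69 ± 0.01 in day 5 wild-type cells. In P248L cells this ratio was 0.74 ± 0.02 untreated, 0.66 ± 0.03 at day 2 and 0.73 ± 0.02 at day 5.

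Ribosomal proteins whose symbols fall outside the name pattern were read beside the members. Gnb2l1, the older symbol of Rack1, a scaffold on the head of the small subunit, went from 1303, 1797 and 1216 to 674, 617 and 641 CPM in wild-type cells by day 5, at -1.16 (SE 0.24, edgeR adjusted p = 0.000254), and was higher in P248L cells at day 5, at 0.78 (edgeR adjusted p = 0.011). Fau, made as a fusion with a ubiquitin-like protein, did not pass the threshold in wild-type cells. It had 127, 164 and 143 CPM untreated and 133, 137 and 112 at day 5, with overlap, at -0.18 (edgeR adjusted p = 0.668). It had 502, 176 and 109.6 CPM in untreated P248L libraries, where library 1 again stood apart.

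Most of the few tested paralogs, copies that can replace a ribosomal protein, fell as well. Of 13 on the list 5 were tested. In wild-type cells 4 of them fell and 1 rose at day 5 (37.4 and 35.7% of all genes). The same counts were found in P248L cells (36.2 and 34.8% of all genes). Rpl22l1, the copy of Rpl22, fell in wild-type cells from 125, 173 and 90.1 to 45.9, 37.8 and 56.5 CPM, at -1.47 (SE 0.33, edgeR adjusted p = 0.000556), beside -1.21 for Rpl22. Rps27l, a target of p53, was at -0.86 (SE 0.20, edgeR adjusted p = 0.00102), Rpl36al at -1.04 (edgeR adjusted p = 0.00155) and Rpl7l1, which serves in ribosome assembly, at -0.73 (edgeR adjusted p = 5.56e-06). Rpl3l, known from heart and skeletal muscle, was the one that rose. It held 1.09, 1.90 and 2.04 CPM untreated and 4.08, 5.23 and 6.94 at day 5 in wild-type cells, at 1.67 (SE 0.27, edgeR adjusted p = 2.07e-05), and 2.44, 3.44 and 3.01 and 9.54, 11.2 and 15.8 CPM in P248L cells, at 2.03 (SE 0.25, edgeR adjusted p = 1.11e-06). Its levels stayed far below those of Rpl3. Rpl10l and Rpl39l had 0 reads in all 18 libraries.

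Other genes of the translation machinery were counted from lists. Of 29 genes of translation factors and others with a 5′ oligopyrimidine tract, 24 fell and 2 rose in wild-type cells at day 5 (median -1.19, beside 37.4 and 35.7% of all genes). In P248L cells 22 fell and 3 rose (-0.69, beside 36.2 and 34.8%). Between the lines at day 5, 17 were higher in P248L cells and 0 lower (0.46, beside 22.8 and 22.7%), and 7 responses differed, each with the higher value in P248L cells (14.7% of all genes). The one of smallest p, Impdh2, which makes guanine nucleotides, had 293, 365 and 270.3 CPM untreated and 37.6, 32.5 and 30.8 at day 5 in wild-type cells, at -3.20 (edgeR adjusted p = 9.47e-12), and 54.6, 69.6 and 69.1 CPM at day 5 in P248L cells.

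Ribosome biogenesis genes fell together in both lines. Of 29 tested, 29 fell in wild-type (median -1.89) and 29 in P248L cells (-1.87) at day 5 (37.4 and 36.2% of all genes). At day 2, 10 of 29 rose in wild-type and 20 in P248L cells (22.1 and 18.5% of all genes) and 0 fell, and in wild-type cells 19 did not pass the threshold. Between the lines at day 5, 12 were higher in P248L cells and 1 lower (22.8 and 22.7% of all genes), at a median of 0.05 where that of the ribosomal proteins was 0.81. Nop56, a core protein of box C/D snoRNPs, stood at 219, 226 and 227 CPM untreated and 37.8, 39.9 and 36.9 at day 5 in wild-type cells, and 71.7, 71.6 and 65.6 at day 5 in P248L cells. Of 18 dedicated chaperones and importers of ribosomal proteins, 14 fell in wild-type (median -1.32) and 16 in P248L cells (-1.22) at day 5, beside 37.4 and 36.2% of all genes, among them Heatr3, which helps import Rpl5 and stood at -1.85 (edgeR adjusted p = 6.52e-11) and -1.75 (edgeR adjusted p = 1.94e-10).

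Of 16 regulators of ribosomal protein mRNAs and of their supply, 5 fell and 2 rose in wild-type cells at day 5 (median -0.18), beside 37.4 and 35.7% of all genes. Myc, a transcription factor that drives ribosome production, had the smallest p. It held 359.5, 357 and 332 CPM untreated, 285, 218 and 261 on day 2 and 39.0, 35.9 and 37.4 at day 5 in wild-type cells, at -3.22 (SE 0.21, edgeR adjusted p = 1.46e-10). In P248L cells it held 570.0, 426 and 316 CPM untreated, 544, 364 and 495 on day 2 and 123, 121 and 91.0 at day 5, above every wild-type day 5 library, and its response differed between the lines by 1.25 (SE 0.27, edgeR adjusted p = 0.00207).

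Proteins of the mitochondrial ribosome, which translates the mRNAs of the mitochondrial genome, were read as a set beside the cytosolic one. Of 76 tested genes of its proteins, 55 fell and 2 rose in wild-type cells at day 5 (median -0.74, beside 37.4 and 35.7% of all genes). In P248L cells 68 fell and 1 rose (-1.18, beside 36.2 and 34.8%). Between the lines at day 5, 10 were higher in P248L cells and 2 lower, at a median of 0.07, beside 22.8 and 22.7% of all genes. The difference between the 2 sets of genes was not tested.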

How the data were processed

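Total RNA libraries of 18 samples were aligned with STAR to mm10, per the submitters' processing notes. The aligner's version and the annotation were not given in the sources used here. Each deposited file holds raw read counts per gene for unstranded and for each strand, and the counts of the strand that holds the reads were used (the other held 1.17 to 2.54% of them). Rows that name no gene were left out of totals and tests, and reads in no single gene, multi-mapping ones included, were 27.9 to 38.1% of a library.

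The 11942 genes passing edgeR's filter at a minimum count of 10 entered 1 fit of all 18 libraries with a mean per group (edgeR 4.0.16, R 4.3.3, TMM factors, quasi-likelihood F test, Benjamini-Hochberg adjustment over all tested genes, threshold 0.05). Standard errors are the log2 fold change over the root of F. CPM values use reads in tested genes and TMM factors. Alternatives were DESeq2 1.42.0, limma-voom (limma 3.58.1), other scalings and filters, fewer libraries, both strands, a replicate block, and the dependence of each library on length and GC content of transcripts, estimated on other genes (mgcv 1.9.3) and removed. Transcript lengths came from GENCODE M21 and sequences and coordinates from RefSeq on GRCm38.p6, which has the coordinates of mm10. Rps3a is named Rps3a1 in RefSeq.

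The fit was tested on simulated counts for each comparison, with 11561 to 11583 genes per step. It recovered 57.0 to 77.3% of 2-fold changes between groups, and 35.4 and 42.0% of 2-fold differences between responses at day 2 and day 5. Of the calls, 2.87 to 7.07% were false. The counts were drawn independently from a single mean for each gene, with few genes changed and no trend on transcript length. These rates therefore do not describe members that shift together in a library. Replicate numbers are shared by the groups, but what they mark is not in the labels. In P248L cells untreated and at day 2, same-numbered libraries deviated together (r = 0.535, 0.321 and 0.417), and in the other comparisons r lay between -0.578 and 0.54.

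The members and lists, including those for markers and other ribosome genes, were chosen with earlier results of these data known. Members were named by rule: the 3 of largest rise and fall per comparison past the threshold, 16 of known role, those of highest and lowest level, and outside the members the paralogs, Fau, Gnb2l1 and the gene of smallest p at wild-type day 5 in each of 4 lists. Protein sequences and reads below the level of genes were not analysed here, and 1 gene of the rule is not reported here.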

Additional observations from a re-analysis of the deposited data

Results flagged for a closer look

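The responses of 6 ribosomal protein genes to 5 days of IL-3 differed between the lines in edgeR's test of that difference. These are 6 of 75 members (8.0%), where 14.7% of all tested genes had a higher response in P248L cells. The P248L minus wild-type response was 0.94 for Rpl3, 0.83 for Rps6, 0.71 for Rpl10, 0.70 for Rpl4, 0.70 for Rpl5 and 0.61 for Rpl21 on the log2 scale, so the fall from untreated cells was smaller in P248L cells in each. Over the other settings tried the values stayed positive, from 0.75 to 1.16 for Rpl3, 0.60 to 1.13 for Rps6, 0.49 to 0.92 for Rpl10, 0.54 to 0.93 for Rpl4, 0.51 to 0.93 for Rpl5 and 0.51 to 0.88 for Rpl21. Of the other settings fitted for this difference, 0 ended the call for Rpl3, 5 for Rps6, 4 for Rpl10, 7 for Rpl4, 13 for Rpl5 and 4 for Rpl21.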

How the results depend on the processing

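In all settings run, 0 of the named results that passed the threshold turned direction. The counts of members that fell in wild-type cells at day 5, against untreated (67) and day 2 (62), and that were higher in P248L cells at day 5 (58) stayed within 1.5 times under each setting. Leaving out 1 library at a time gave 55 to 72, 46 to 70 and 40 to 66. Without P248L untreated library 1 and day 2 library 3, the wild-type day 2 falls (0) were 2, P248L day 2 falls (35) 0 and rises (0) 1, day 5 falls (54) 31, falls from day 2 to day 5 (10) 19, untreated line differences (13) 4, those at day 2 (1) 5 and day 5 response differences (6) 37. With wild-type untreated library 2 left out as well, a setting added after seeing the data, wild-type day 2 rises were 1, P248L day 2 falls 3 and rises 1, day 5 falls 35, falls from day 2 to day 5 21, members lower in untreated P248L cells 1, line differences at day 2 6 and response differences 26. With the length and GC trend removed, these were 16 wild-type day 2 falls, 1 P248L day 2 rise, 34 day 5 falls and 1 rise, 5 rises from day 2 to day 5, 5 untreated and 4 day 2 line differences, and 40 response differences. When only the compared libraries were fitted, there were 4 wild-type day 2 falls, 2 P248L day 2 and 23 day 5 falls, 0 line differences untreated and at day 2, and 3 response differences, with fewer samples behind each estimate of spread. Without scaling, the wild-type day 2 falls were 6, P248L falls from day 2 to day 5 17, untreated line differences 5 and response differences 18. The untreated line differences were 6 with limma-voom, the day 2 ones 2 with DESeq2 and 0 with no filter. Leaving out 1 library gave 5 to 55 P248L day 2 falls, 23 to 68 day 5 falls, 6 to 16 falls and 0 to 1 rises from day 2 to day 5, 2 to 51 untreated and 0 to 5 day 2 line differences, 0 to 4 day 2 and 1 to 25 day 5 response differences. The P248L pair left out together was the highest untreated and the lowest day 2 library of that line in the members. That choice in itself favours smaller P248L falls from untreated cells. The cause of these moves was not tested, and the share of all genes called in each setting is not given beside these counts.

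Without scaling, the share of called genes that were higher, over all genes, went from 50.4 to 36.0% for wild-type day 2, 48.9 to 34.4% for day 5, 51.0 to 40.5% for day 5 against day 2, 46.4 to 34.4% for P248L day 2, 47.7 to 35.8% for the untreated lines and 54.6 to 72.7% for day 5 responses. For day 2 responses it was 31.9%, and 45.2% with DESeq2 and 43.0% with the trend removed. The all-gene median at wild-type day 5 moved from -0.05 to -0.49 without scaling, and the members' median from -1.02 to -1.46.

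In the fit of all libraries, the replicate block gave 8 untreated line differences beside 13 without it. It moved no other count there by over 1.5 times, with 36 P248L day 2 falls. A blocked fit of the 6 P248L untreated and day 2 libraries alone, added after seeing the data, gave 30. The fit of the same 6 libraries without the block gave the far smaller count stated above for the compared libraries. In the P248L untreated and day 2 libraries 6 of 6 were closest to the library of their own number. Rpl26 and Rpl30 had too few reads to be tested, and Rpl34 and Rps27 rest on at most 61 reads per library.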
